A study of Mus musculus with 23 samples.

Results

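Complement is the set of proteins that tags synapses, debris and microbes for uptake, and microglia are the main source of its first component, C1q, in the brain. The genes described here are 9 complement components and receptors, taken by symbol from the deposited table of 35976 genes: the C1q chains C1qa, C1qb and C1qc, the tagging proteins C3 and C4b, the receptors C3ar1 and C5ar1 for the cleaved fragments C3a and C5a, and Itgam and Itgb2, which together encode complement receptor 3. All 9 were found, and all 9 were among the 16121 genes with enough counts to be tested. RNA came from microglia of the striatum, a brain region of reward and habit, of male C57BL/6J mice. The labels give an age of 9 weeks for every library. In all groups mice self-administered intravenous infusions in 15 daily sessions of 2 hr. The Saline group (8 libraries) took 0.9% saline. The Maintenance group (8 libraries) took methamphetamine at 0.05 mg/kg per infusion and was collected straight after the last session. The Abstinence group (7 libraries) took the same dose and was then kept drug-free in its home cage for 21 days. No saline group passed through those 21 days, so drug history, age and time in the home cage cannot be told apart in Abstinence against Saline. Abstinence against Maintenance also differs in age, time in the home cage and time since the last session, which cannot be told apart there either. The difference in age in both comparisons holds only if the labelled 9 weeks are the age at the start. The labels do not say whether each library is a separate animal, so p-values measure the spread between libraries.

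In the classical pathway C1q binds a surface, and the proteases attached to it cleave C4 and C2. Their fragments form the convertase that cleaves C3, and fragments of C4 and C3 stay attached to that surface. Microglia carry complement receptor 3, a dimer of the alphaM chain (Itgam, CD11b) and the beta2 chain (Itgb2, CD18), which holds C3-coated material for engulfment. In the developing brain this route is known for the removal of synapses. The small fragments C3a and C5a act at a distance through their own receptors.

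The 3 C1q genes lie side by side on the minus strand of chromosome 4, in the order C1qb, C1qc, C1qa, within 18.7 kb (136880129 to 136898803, GRCm38). RefSeq promoter windows (GRCm38.p6) matched 6 of the 9 genes. The bases upstream of the gene start in both RefSeq and GENCODE are shown for C1qb and C1qc, neighbours among the most abundant microglial transcripts, and for C3, which was near the detection limit in the same libraries. Capitals mark AGGAA or its reverse complement TTCCT, a core shared by sites of ETS factors such as PU.1, the myeloid regulator. The windows are chr4:136886201-136886450 for C1qb, chr4:136893066-136893164 for C1qc and chr17:57228137-57228386 for C3, all on the minus strand.
C1qb: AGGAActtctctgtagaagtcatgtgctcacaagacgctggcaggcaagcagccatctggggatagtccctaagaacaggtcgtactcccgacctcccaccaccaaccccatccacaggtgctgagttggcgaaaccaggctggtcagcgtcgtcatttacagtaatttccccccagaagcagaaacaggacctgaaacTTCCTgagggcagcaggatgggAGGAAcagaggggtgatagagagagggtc
C1qc: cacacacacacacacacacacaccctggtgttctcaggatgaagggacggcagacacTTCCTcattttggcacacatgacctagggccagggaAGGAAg
C3: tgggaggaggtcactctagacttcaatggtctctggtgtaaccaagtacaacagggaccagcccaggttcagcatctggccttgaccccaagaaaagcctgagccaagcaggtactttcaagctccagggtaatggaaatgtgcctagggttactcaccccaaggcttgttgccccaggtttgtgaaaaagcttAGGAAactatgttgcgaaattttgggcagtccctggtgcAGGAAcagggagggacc

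On both strands AGGAA occurred 3 times in the 250 bases of C1qb, 2 times in the 99 bases of C1qc and 2 times in the 250 bases of C3. Among 32851 RefSeq promoters 60.3% of windows of 250 bases and 31.5% of windows of 99 bases hold it, so its presence sets none of these genes apart. The longer PU.1 motif GAGGAAGT, which overlaps AGGAA, was found 1 time in C1qc, on the reverse strand (0.776% of windows of that length), and not in the C1qb or C3 window (2.44% of windows of 250 bases). The C/EBP motif TTGCNNAA was found 1 time, in C3 (9.56% of windows of 250 bases).

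Library totals ran from 54.97 to 94.83 M counts (M, 1e6). The labels call the cells microglia and the tissue neuronal. The microglial gene Tmem119 measured 4210 ± 667 CPM (counts per 1e6 counts of the library, SD, n = 8) in Saline, and 10 striatal neuron markers summed to a median of 48.8 CPM there. Other brain cells were higher in Saline, at medians of 1765 CPM for oligodendrocyte, 625 for endothelial and pericyte and 503 for astrocyte markers. Maintenance 6 and 7 had the fewest detected genes (12459 and 12740). Maintenance 8 carried markers of choroid plexus and ependyma at a sum of 44456 CPM, against 0 to 10.6 CPM in the other 7 Maintenance libraries, and it had the lowest level of all 23 libraries for C1qb, C1qc, C3ar1 and Itgb2. Values without these libraries are given beside many of the estimates.

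By CPM, which is not corrected for gene length, C1qb, C1qc and C1qa ranked 7, 8 and 37 among all genes in Saline. C1qb measured 8829 ± 625 CPM, C1qc 8196 ± 638 CPM and C1qa 3091 ± 311 CPM (SD, n = 8 here and for the levels that follow). Among the receptor genes Itgam measured 883 ± 82.8, C3ar1 735 ± 81.8, Itgb2 716 ± 55.9 and C5ar1 302 ± 55.9 CPM. C4b measured 2.37 ± 1.03 CPM and C3 1.05 ± 0.78 CPM, from 79 to 307 and from 12 to 173 counts per library. Message for C1q and for the receptors was thus read deeply in every library, and that for C3 and C4b by few counts.

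**Figure D1:**
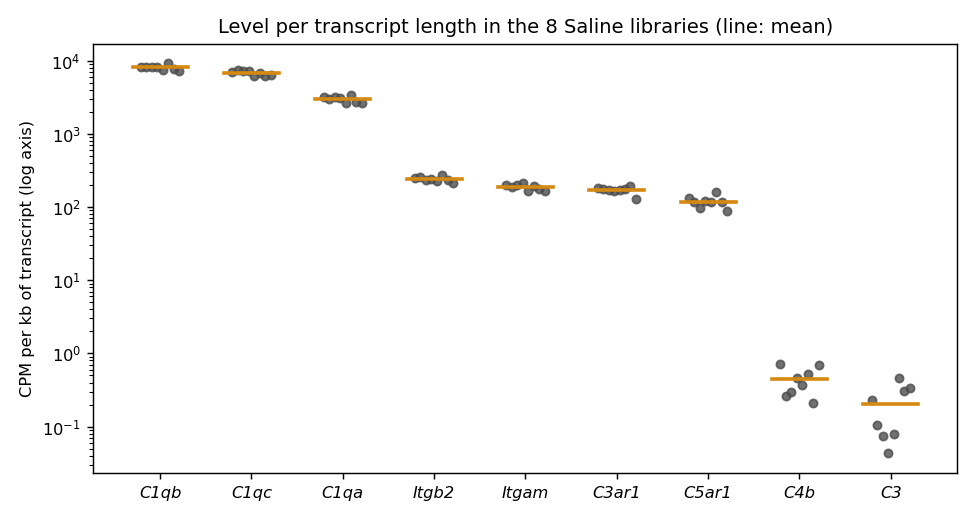
CPM per kb of transcript (log axis) for each of the 9 genes in the 8 Saline libraries, 1 point per library with a line at the mean. The C1q chains lie between 2972 and 8115 CPM per kb on average, the 4 receptor genes between 119 and 241, and C4b and C3 below 1.

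The order of levels among the 9 genes was taken per kb of the longest coding transcript. In Saline the order was C1qb (8115 CPM per kb), C1qc (6813), C1qa (2972), Itgb2 (241), Itgam (189), C3ar1 (171), C5ar1 (119), C4b (0.44) and C3 (0.20). The order of means was the same in Maintenance and Abstinence. C1qb lay above C1qc in 23 of 23 libraries, although the ranges overlapped, and C1qa lay below C1qc and above Itgb2 with no overlap of ranges. Itgam and C3ar1 did not differ beyond their spread, since Itgam was the higher in 16 of 23 libraries. C4b was above C3 in 21 of 23 libraries with overlapping ranges.

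None of the 9 genes passed at an adjusted p under 0.05 in any of the 3 comparisons by edgeR's quasi-likelihood test. For Maintenance against Saline 0.707% of all 16121 genes passed, for Abstinence against Saline 0.0186% and for Abstinence against Maintenance 0.949%, so 0 of 9 is close to the background in each. At an unadjusted p under 0.05 there were 4 of 9 in Maintenance against Saline (C1qa, C1qb, C1qc and Itgam, all lower), against 11.8% of all genes in either direction and 5.73% lower. There were 2 of 9 in Abstinence against Saline (C1qc and C5ar1, both lower), against 4.39% in either direction and 2.23% lower. There were 5 of 9 in Abstinence against Maintenance, against 11% of all genes. Of these C1qa, C4b, Itgam and Itgb2 were higher (5.11% of all genes) and C5ar1 lower (5.86%). Several members move together over the libraries (Pearson r = 0.926 for C1qa and C1qb, 0.8 for C1qa and Itgam), so they are not independent counts. The members were chosen with earlier results of these data known, and the background holds genes of all levels. The shares are thus not alike, and an excess among the members was not tested. DESeq2 called 0, 0 and 1 of the 9 in these comparisons and limma voom 1, 0 and 0. Over all 16121 genes DESeq2 called 351, 36 and 471 and limma voom 411, 184 and 331. The median log2 fold change of the 9 genes was -0.18, -0.04 and 0.16 in that order, beside 0.01 over all genes each time. The 2 comparisons with Maintenance share the Maintenance libraries and the first 2 share the Saline libraries. In bulk RNA fewer cells of a type and less RNA per cell cannot be told apart. For every gene the ranges of the compared groups overlapped, for C5ar1 in Abstinence against Maintenance only through Maintenance 8.

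**Figure D2:**
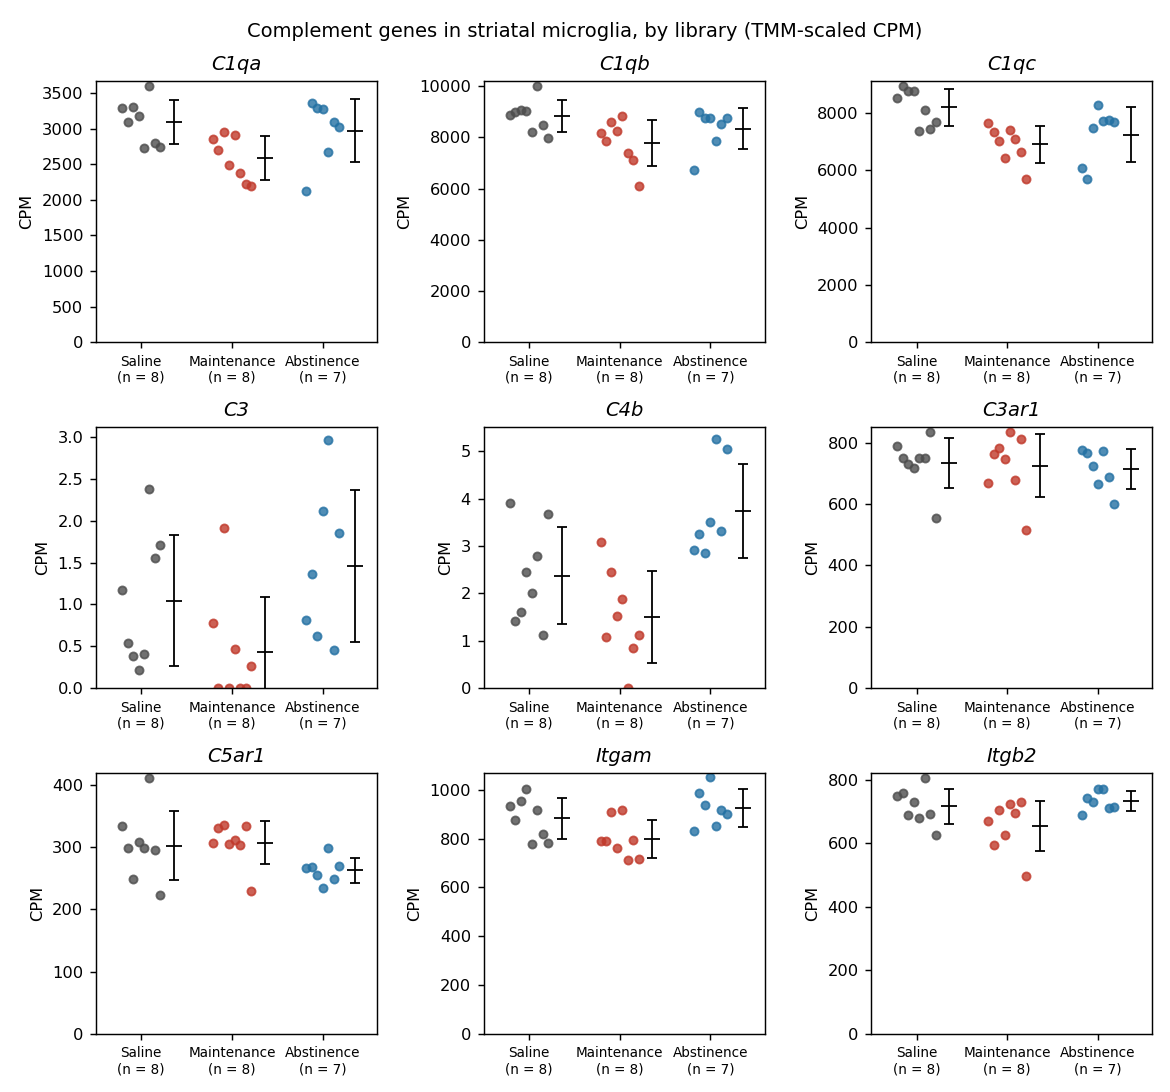
TMM-scaled CPM of the 9 genes in each library (points) with mean and SD beside each group (8 Saline, 8 Maintenance, 7 Abstinence), linear axes from 0 (the SD bar of C3 in Maintenance is cut at 0). All 8 Maintenance libraries lie below the Saline median for C1qa, C1qb and C1qc, and all 7 Abstinence libraries lie above the Saline median for C4b.

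**Figure D3:**
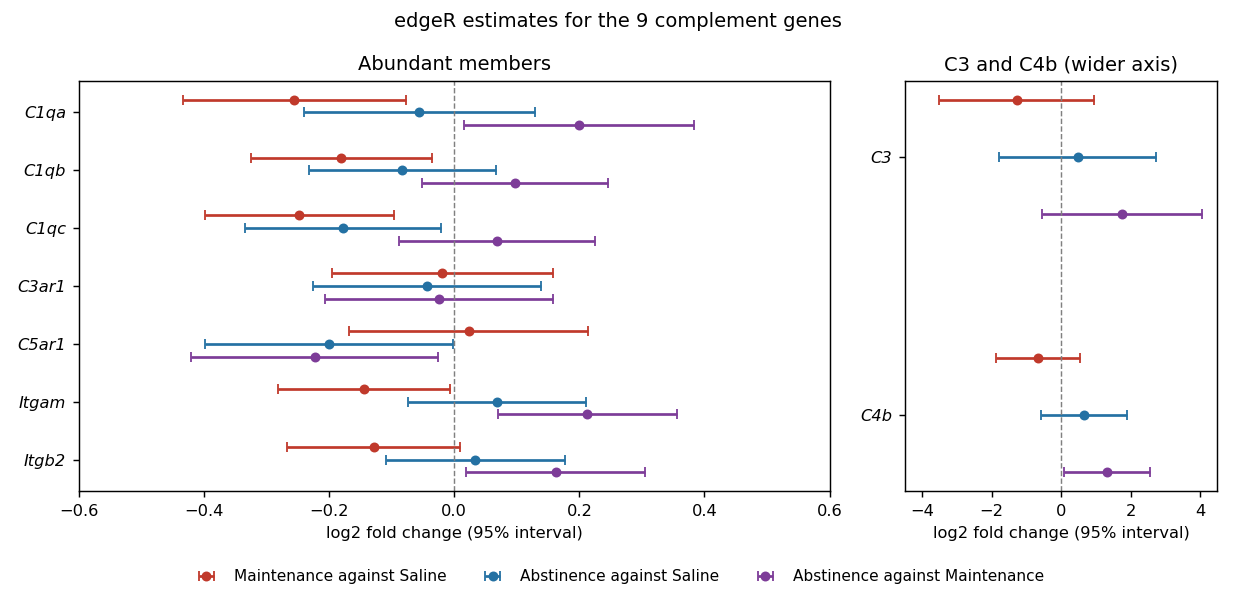
Log2 fold change of each gene with its 95% interval from the edgeR fit for the 3 comparisons, with C3 and C4b on a wider axis. Estimates of the 7 abundant genes lie between -0.26 and 0.21, while the C3 intervals span several log2 units.

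The C1q chains, which assemble in equal numbers into the protein that starts the classical pathway, were lower in Maintenance than in Saline by a small amount that did not pass. C1qa ran from 2725 to 3595 CPM in Saline (median 3135), from 2201 to 2957 in Maintenance (median 2595) and from 2122 to 3356 in Abstinence (median 3089). C1qb ran from 7972 to 10003 CPM in Saline (median 8933), from 6092 to 8852 in Maintenance (median 8020) and from 6714 to 8976 in Abstinence (median 8748). C1qc ran from 7377 to 8953 CPM in Saline (median 8313), from 5682 to 7642 in Maintenance (median 7047) and from 5697 to 8296 in Abstinence (median 7690). For each chain 8 of 8 Maintenance libraries lay below the Saline median, and 5, 4 and 6 of them lay below the lowest Saline library for C1qa, C1qb and C1qc.

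Against Saline the log2 fold change in Maintenance was -0.26 ± 0.09 for C1qa (SE, 95% interval -0.43 to -0.08, edgeR adjusted p = 0.172). It was -0.18 ± 0.07 for C1qb (-0.32 to -0.04, edgeR adjusted p = 0.260) and -0.25 ± 0.07 for C1qc (-0.40 to -0.10, edgeR adjusted p = 0.119). As percent changes these are -16.2%, -11.7% and -15.8%. Without Maintenance 6, 7 and 8 they were -0.15 (adjusted p = 0.585), -0.08 (adjusted p = 0.732) and -0.20 (adjusted p = 0.313). C1qc passed with limma voom and quality weights (-0.26 ± 0.07, adjusted p = 0.0316), a setting in which 411 of all 16121 genes passed. Oligodendrocyte markers summed to a median of 1765 CPM in Saline, 3963 in Maintenance and 3642 in Abstinence, with Saline libraries from 656 to 5487 CPM and 12 of 12 markers detected in each group. The erythrocyte markers (5 of 5 detected) summed to medians of 474, 109 and 428 CPM in that order, with Saline libraries from 161 to 691 CPM and Maintenance libraries from 60.0 to 503, and their part in the C1q values was not tested. The microglial markers summed to 46416, 44124 and 45246 CPM in the same order (medians, 8 of 8 detected). With mean oligodendrocyte and neutrophil marker levels as covariates the values for C1qa, C1qb and C1qc were -0.23 ± 0.12, -0.18 ± 0.10 and -0.28 ± 0.10 (adjusted p = 0.552, 0.579 and 0.315).

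After abstinence C1qa was 0.20 ± 0.09 log2 units above Maintenance (0.02 to 0.38, adjusted p = 0.384), and C1qb and C1qc were at 0.10 and 0.07 (adjusted p = 0.738 and 0.876). Without Maintenance 6, 7 and 8 these were 0.09, -0.01 and 0.01. Against Saline C1qc was lower in 7 of 7 Abstinence libraries than the Saline median, with a log2 fold change of -0.18 ± 0.08 (-0.34 to -0.02, adjusted p = 0.999). For C1qa and C1qb it was -0.06 and -0.08 (adjusted p = 0.999 for both). The intervals keep the change of C1qa after abstinence against Saline between -15.3% and 9.31%, and that of C1qb between -14.9% and 4.70%.

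Together the C1q chains made up 2.00 ± 0.11% of all counts in Saline, 1.72 ± 0.17% in Maintenance and 1.86 ± 0.17% in Abstinence (SD, n = 8, 8 and 7). The lowest share was 1.36%, in Maintenance 8, and the highest was in Saline 3. Per kb the chains were unequal at the level of message: in Saline C1qb held 45.4%, C1qc 38.1% and C1qa 16.6% of their sum. In Maintenance the shares were 46.5%, 37.4% and 16.2%, and in Abstinence 46.4%, 36.4% and 17.2%. C1qa followed C1qb more closely over the 23 libraries (Pearson r = 0.926) than C1qc did (r = 0.652), as a description over libraries that share depth and groups. Abstinence 2 stood apart in composition. Its C1qc level, 5697 CPM, was close to the lowest of all, while its C1qa and C1qb were the highest of their group, and C1qc held 29.2% of the sum there against 34.8 to 39.8% in Saline. Abstinence 1 was instead low for all chains, at 2122 CPM for C1qa and 6714 CPM for C1qb.

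**Figure D4:**
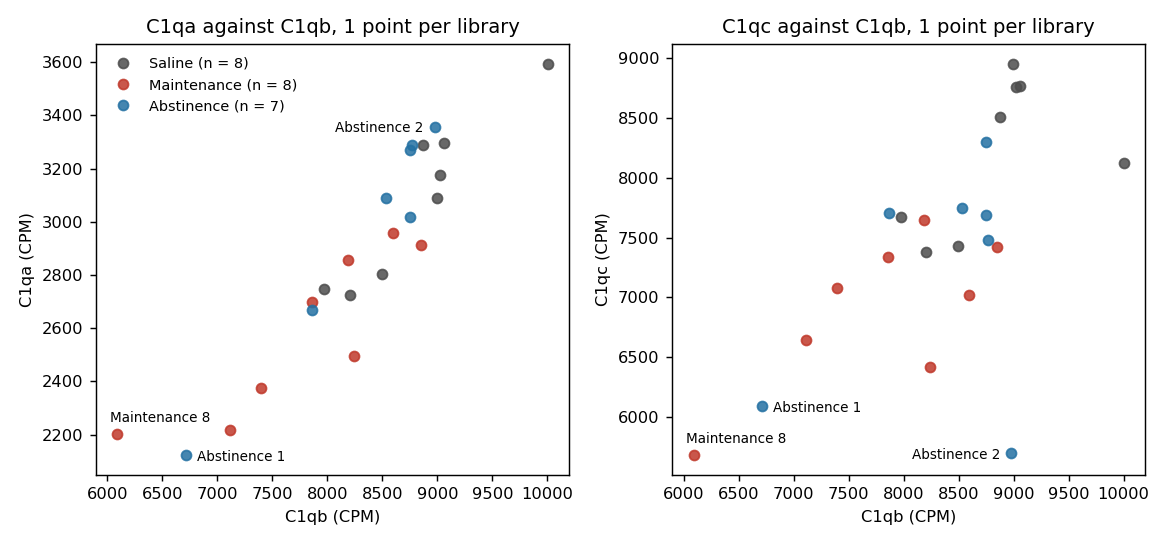
C1qa (left) and C1qc (right) against C1qb in TMM-scaled CPM, 1 point per library, coloured by group, with axes that do not start at 0. C1qa and C1qb lie close to a line, and Abstinence 2 lies far below the others in C1qc at a high C1qb level.

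C3 and C4b, whose cleaved forms coat a target, were scarce and variable. C3 (chromosome 17, 57203970 to 57228136) ran from 0.22 to 2.38 CPM in Saline (median 0.85), from 0 to 1.91 in Maintenance (median 0.13) and from 0.46 to 2.96 in Abstinence (median 1.36). C3 had 0 counts in Maintenance 2, 4, 6 and 7, which allows up to 0.0539, 0.0501, 0.0403 and 0.0350 CPM (3 counts, counting error only). The log2 fold change was -1.28 ± 1.08 in Maintenance against Saline (-3.50 to 0.94, edgeR adjusted p = 0.734), so changes from -91.2% to 91.6% lie within its interval. It was 0.48 ± 1.10 in Abstinence against Saline (adjusted p = 0.999) and 1.76 ± 1.12 in Abstinence against Maintenance (adjusted p = 0.641). In Maintenance against Saline the estimate was -2.26 without Maintenance 3, -0.72 without Maintenance 6, 7 and 8 and -0.28 in the 17 libraries of the second deposited table. In Abstinence against Saline it was 0.20 without Abstinence 5 and 0.76 without Saline 6, and in Abstinence against Maintenance 1.19 without Maintenance 6, 7 and 8.

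C4b (chromosome 17, 34728380 to 34743882) ran from 1.12 to 3.91 CPM in Saline (median 2.23), from 0 to 3.09 in Maintenance (median 1.31) and from 2.84 to 5.25 in Abstinence (median 3.33). All 7 Abstinence libraries were above both the Saline median and the Maintenance median. Abstinence was above Maintenance by 1.32 ± 0.61 log2 units (0.07 to 2.57, adjusted p = 0.407) and above Saline by 0.65 ± 0.60 (-0.59 to 1.89, adjusted p = 0.999). Maintenance against Saline gave -0.67 ± 0.59 (adjusted p = 0.750), with -0.25 when Maintenance 6, 7 and 8 were left out, -0.066 in the 17 libraries of the second deposited table and -1.02 with oligodendrocyte and neutrophil marker means as covariates. These covariates put Abstinence against Saline at 0.29, and leaving out Maintenance 6, 7 and 8 put Abstinence against Maintenance at 0.89. The single library without C4b counts was Maintenance 6 (up to 0.0403 CPM). C4b has a near-identical neighbour, C4a, which had 0 counts in all 23 libraries, so the split of reads between the copies is uncertain. Astrocytes are known to make C3 and C4. Astrocyte markers (10 of 10 detected) summed to 406 to 826 CPM in Saline, 464 to 787 in Maintenance and 398 to 692 in Abstinence, and their part in C3 and C4b was not tested.

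The receptor for C3a, encoded by C3ar1 (chromosome 6, 122847138 to 122856161), showed no detectable difference. It ran from 554 to 836 CPM in Saline (median 751), from 516 to 836 in Maintenance (median 755) and from 600 to 775 in Abstinence (median 726). The log2 fold change of C3ar1 was -0.02 ± 0.09 in Maintenance against Saline (-0.20 to 0.16, adjusted p = 0.969), -0.04 ± 0.09 in Abstinence against Saline and -0.02 ± 0.09 in Abstinence against Maintenance. The intervals keep the change between -14.5% and 11.6% in these comparisons. With RLE size factors the first value was 0.0015, and without Maintenance 8 it was 0.04.

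The C5a receptor gene C5ar1 (chromosome 7, 16246743 to 16259540), whose product draws myeloid cells toward C5a, was lowest after abstinence by its median. It ran from 223 to 411 CPM in Saline (median 299), from 230 to 336 in Maintenance (median 309) and from 234 to 299 in Abstinence (median 267). All 7 Abstinence libraries lay below both other medians, but within the Saline and Maintenance ranges. The overlap with Maintenance rested on Maintenance 8 (230 CPM), while the other 7 Maintenance libraries ran from 304 to 336 CPM. The log2 fold change was -0.22 ± 0.10 against Maintenance (-0.42 to -0.03, adjusted p = 0.361) and -0.20 ± 0.10 against Saline (-0.40 to -0.0023, adjusted p = 0.999). Maintenance against Saline gave 0.02 ± 0.09 (-0.17 to 0.21, adjusted p = 0.965). In the 17 libraries of the second deposited table C5ar1 passed against Maintenance at -0.29 ± 0.07 (adjusted p = 0.0338). Those leave out Saline 5, 6 and 8 and Maintenance 6, 7 and 8. Without Maintenance 6, 7 and 8 alone the value against Maintenance was -0.28 (edgeR adjusted p = 0.192). Without Maintenance 8 alone it was -0.28 (edgeR adjusted p = 0.108).

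C5ar1 is also expressed by neutrophils, whose markers had a higher median in Saline than in Maintenance or Abstinence. The neutrophil sum over 12 genes was 49.5 to 943 CPM in Saline (median 134), 9.40 to 194 in Maintenance (median 89.6) and 14.6 to 167 in Abstinence (median 66.0). Mpo and Elane were at 0 in every Maintenance library, and Ly6g, Ltf, Mpo and Elane in every Abstinence library. The highest Saline values of both C5ar1 (411 CPM) and the neutrophil sum (943 CPM) were in Saline 6. Without Saline 6 the C5ar1 log2 fold change in Abstinence against Saline was -0.13. With mean neutrophil and oligodendrocyte marker levels as covariates it was -0.11 ± 0.13. The same covariates gave -0.22 ± 0.10 in Abstinence against Maintenance and 0.11 ± 0.13 in Maintenance against Saline, beside -0.22 and 0.02 without them. Both cell types enter this fit at once, so the part of neutrophils in these values was not tested.

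The chains of complement receptor 3 had their lowest medians in Maintenance. Itgam (chromosome 7, 128062640 to 128118491) ran from 780 to 1001 CPM in Saline (median 897), from 712 to 916 in Maintenance (median 790) and from 832 to 1053 in Abstinence (median 917). Itgb2 (chromosome 10, 77530252 to 77565708) ran from 627 to 807 CPM in Saline (median 711), from 497 to 731 in Maintenance (median 682) and from 689 to 771 in Abstinence (median 731). All 7 Abstinence libraries were above the Maintenance median for both genes, and 4 of 7 were above the highest Maintenance library for each. Neither passed.

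For Abstinence against Maintenance the log2 fold change was 0.21 ± 0.07 for Itgam (0.07 to 0.36, edgeR adjusted p = 0.150) and 0.16 ± 0.07 for Itgb2 (0.02 to 0.31, edgeR adjusted p = 0.356). DESeq2 called Itgam in this comparison (0.20, adjusted p = 0.0417), where it called 471 of all 16121 genes. Without Maintenance 6, 7 and 8 the Itgam value was 0.15, and without Maintenance 8 that of Itgb2 was 0.10. Against Saline the Maintenance value was -0.14 ± 0.07 for Itgam (-0.28 to -0.01, adjusted p = 0.385) and -0.13 ± 0.07 for Itgb2 (-0.27 to 0.01, adjusted p = 0.474), and without Maintenance 6, 7 and 8 they were -0.085 and -0.11. Without Maintenance 8 alone the Itgb2 value was -0.082. Abstinence differed from Saline by 0.07 ± 0.07 for Itgam and 0.03 ± 0.07 for Itgb2 (adjusted p = 0.999 for both). The log2 ratio of Itgam to Itgb2 averaged 0.30 ± 0.11 over the Saline libraries, 0.29 ± 0.16 over Maintenance and 0.33 ± 0.10 over Abstinence (SD), so group means of the ratio differed by less than the spread between libraries.

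Of 52 other complement genes listed, 30 were tested. In Maintenance against Saline 1 of 30 was higher and 0 lower, against 0.335% and 0.372% of all genes, and in the other comparisons 0 of 30 passed. Cr1l, encoding the membrane regulator Crry, measured 150 ± 12.0, 144 ± 22.4 and 141 ± 8.17 CPM in the 3 groups. The gene that passed was Cd55, which encodes decay-accelerating factor, an inhibitor of the C3 convertase. It had 0 counts in 7 of 8 Saline libraries (highest 0.15 CPM), and in Maintenance it ran from 0 to 32.2 CPM with a median of 0.35. The value of 32.2 CPM belonged to Maintenance 8, which carried the choroid plexus markers, and the highest of the other 7 was 3.89 CPM. Abstinence ran from 0 to 2.11 CPM with a median of 0.45 and 1 of 7 libraries at 0, and its log2 fold change against Saline was 4.85 ± 1.69 (adjusted p = 0.741). For Maintenance against Saline the log2 fold change was 7.79 ± 1.89 (adjusted p = 0.0496), and 5.30 ± 1.77 (adjusted p = 0.165) without Maintenance 8. Of 32 alternatives 30 gave Cd55 an adjusted p, and it passed in 6 of these. DESeq2 gave it none. With only the Saline and Maintenance libraries in the fit, the filter on low counts dropped Cd55, so it was not tested there. Clu, encoding clusterin, an inhibitor of the terminal complex, was likewise high in 1 library: 1370 CPM in Maintenance 8 against 51.7 to 111 CPM in the other 7.

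**Figure D5:**
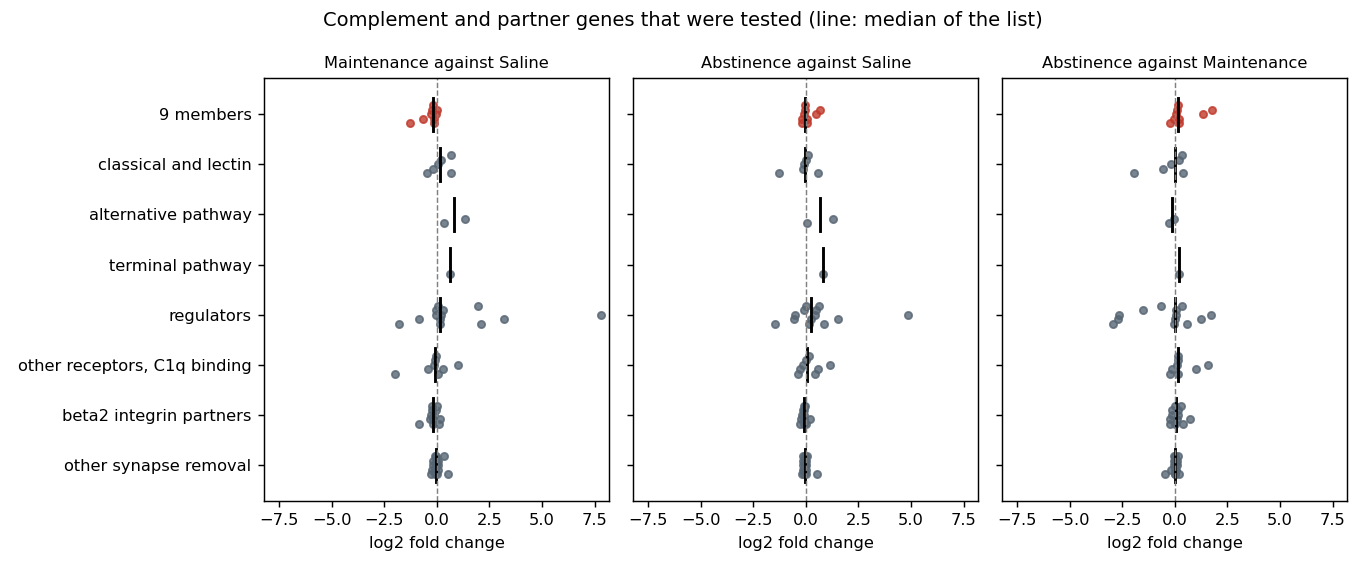
Log2 fold changes of the tested genes of each list in the 3 comparisons (points, 9 genes described here in red) with a line at each list's median. Most points lie near 0, and the point at 7.79 among the regulators in Maintenance against Saline is Cd55.

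The early enzymes and sensors of the classical and lectin pathways had 6 of 14 genes tested and the alternative pathway 2 of 3. Those of highest CPM among the former were Colec12, a scavenger receptor with a collectin domain (7.68 ± 2.88 CPM in Saline), Masp1, a lectin pathway protease (5.34 ± 2.68), and Fcna, encoding ficolin A (4.23 ± 1.49). Per kb their order was the reverse, at 0.957, 0.999 and 3.08 CPM per kb. Cfp, encoding properdin, which stabilises the alternative convertase, measured 15.0 ± 6.68 CPM in Saline and Cfb, its protease subunit, 0.52 ± 0.50 CPM. Of 7 terminal pathway genes 1 was tested, C8g, at 0.40 ± 0.34 CPM. Among receptors and C1q-binding proteins (8 of 10 tested) those of highest CPM were Calr, encoding calreticulin, at 585 ± 28.1 CPM, C5ar2, the second C5a receptor, at 106 ± 13.4 CPM and Lrp1, an endocytic receptor, at 78.4 ± 17.1 CPM. None of these genes passed, and the lowest adjusted p among those named was 0.363, for Colec12 in Maintenance against Saline.

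Partners of beta2 integrins had 12 of 12 genes tested and 0 called in each comparison. In Maintenance against Saline 4 of 12 were lower and 1 higher at an unadjusted p under 0.05, against 5.73% and 6.06% of all genes, and their median log2 fold change was -0.18. Tyrobp, the adaptor DAP12 that passes on signals from several microglial receptors, had 1064 ± 102 CPM in Saline, against 837 ± 179 in Maintenance (-0.35 ± 0.13, adjusted p = 0.215). The related adaptor Fcer1g measured 1673 ± 66.5 and 1494 ± 192 CPM (-0.16 ± 0.07, adjusted p = 0.305). Fyb, an adaptor of integrin signalling, measured 465 ± 47.4 CPM in Saline, 520 ± 44.4 in Maintenance and 443 ± 38.2 in Abstinence, with -0.23 ± 0.07 in Abstinence against Maintenance (adjusted p = 0.119). Of 16 other genes of synapse and debris removal, all tested, 0 passed in each comparison. The fractalkine receptor Cx3cr1 had a mean of 5245 ± 563 CPM in Saline, against 4704 ± 578 in Maintenance (-0.16 ± 0.08, adjusted p = 0.409), and the purinergic receptor P2ry12 9504 ± 958 against 9818 ± 1214 CPM (0.05 ± 0.08, adjusted p = 0.905). Ctsb, a lysosomal protease, had 5918 ± 491 against 5754 ± 574 CPM (-0.04 ± 0.06, adjusted p = 0.893).

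Genes whose log2 CPM followed these profiles most closely over the 23 libraries are given as a description, since the libraries share groups, depth and cell makeup. The mean of the C1q chains was followed by Hvcn1, a proton channel (Pearson r = 0.922, Spearman rho = 0.897), St6galnac4, a sialyltransferase (0.904 and 0.942), and H2-DMa, a chain of the peptide exchanger of class II loading (0.901 and 0.921), then by Abi3 and Limd2 (r = 0.877 for both). Without the 2 most extreme libraries, Abstinence 1 and Maintenance 8, the first 3 were at r = 0.894, 0.924 and 0.895. The mean of Itgam and Itgb2 was followed by Cx3cr1 (r = 0.909), Adgre1, encoding the macrophage marker F4/80 (r = 0.903), and Unc93b1, a chaperone of nucleic acid sensing receptors (r = 0.897).

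C3ar1 was followed by Skap2 (r = 0.874), Plek (r = 0.817) and Serpine2 (r = 0.814), values that were 0.737, 0.602 and 0.595 without Saline 8 and Maintenance 8. C5ar1 was followed by Cd14, the endotoxin co-receptor (r = 0.822), Ctc1 (r = 0.797) and Irf2 (r = 0.788). For C4b the closest genes were Fut4 (r = 0.929), Skp2 (r = 0.92) and Cep83os (r = 0.92), and these rested on Maintenance 6 and 7, without which r was 0.626, 0.487 and 0.399. C3, with few counts, was followed by Fam117b (r = 0.782), Vmac (r = 0.763) and Cryl1 (r = 0.749). C3 and C4b themselves had r = 0.672, and C3ar1 and C5ar1 r = 0.627, over the same libraries.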

How the data were processed

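Microglial RNA was sequenced as 23 libraries (8 Saline, 8 Maintenance, 7 Abstinence) after low-input library preparation, per the labels. Per the submitters' processing notes the tools were STAR 2.7.10a, cutadapt 1.18, Trim Galore 0.6.7, DESeq2 1.38.3 and StringTie 2.1.5, with build mm10 (GRCm38). The strand of the counts is not given in the sources used here. Both deposited tables hold raw counts per gene, per the file headers and values. The second held the same counts for 17 libraries, without Saline 5, 6 and 8 and Maintenance 6, 7 and 8. It only chose the libraries of 1 alternative. Genes were kept with edgeR 4.0.16 (filterByExpr, minimum count 10, minimum total 15). CPM are TMM-scaled. All libraries entered 1 quasi-likelihood fit by group (glmQLFit, robust), with Benjamini-Hochberg adjustment over 16121 genes and a threshold of 0.05. An SE is the log2 fold change divided by the square root of F. Alternatives used DESeq2 1.42.0 and limma 3.58.1. The fit was checked on simulated data. Positions and transcript lengths are from GENCODE (GRCm38). The 1 gene overlapping a member, Mir6978 within C3, had 0 counts.

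The 9 members and the gene lists were chosen with earlier results of these data known. Other genes were named by rule: Tmem119, listed genes that passed, the 3 of highest mean CPM per list, and the 5 (C1q) or 3 genes of highest Pearson correlation of log2 CPM (prior count 2) among genes with a mean of at least 2. Clu falls under this rule, and 1 gene that it names is not reported here. Marker genes of 11 cell types were summed as CPM.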

Additional observations from a re-analysis of the deposited data

Results flagged for a closer look

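Of 27 groups of libraries tested for a value far from the others (9 members in 3 groups), 3 had one, and chance gives about 1 in 20. C3 in Maintenance 3 was 1.91 CPM, while the other 7 Maintenance libraries ran from 0 to 0.78 CPM. C3ar1 in Saline 8 was 554 CPM, while the other 7 Saline libraries ran from 719 to 836 CPM. Saline 8 also had the highest oligodendrocyte marker sum of its group, 5487 CPM, and the lowest microglial sum, 40981 CPM. Its sums for astrocytes, striatal neurons, and endothelial cells and pericytes were the highest of that group too (826, 110 and 1229 CPM). The part of these cells in its C3ar1 value was not tested. C5ar1 in Maintenance 8 was 230 CPM, while the other 7 ran from 304 to 336 CPM, and that library carried 44456 CPM of choroid plexus and ependyma markers.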

How the results depend on the processing

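Over 27 member comparisons, 846 of 861 alternative fits kept the direction and the side of the threshold, 3 passed and 12 changed sign. In part of these fits the library left out belonged to the group not compared. That hardly moves the estimate, so the agreement of those fits was largely set beforehand. Other fits with 1 library left out share all their libraries with the reported fit, so their agreement is also partly set beforehand. No member passed in the reported fit, so the same side of the threshold means not passing again. DESeq2 gave no adjusted p for C3 in both comparisons with Maintenance or for C4b in Abstinence against Maintenance. The number of members called was 1 with limma voom (C1qc, Maintenance against Saline) and 1 each with DESeq2 (Itgam) and in the 17 libraries (C5ar1) in Abstinence against Maintenance. Changes of sign in Maintenance against Saline were C3ar1 at 0.0015 with RLE factors and with DESeq2, 0.044 without Maintenance 6 to 8, 0.015 without Saline 7 and 0.037 without Maintenance 8 (with 1 library left out from -0.069 to 0.037), and C5ar1 at -0.014 without Saline 3 and -0.030 without Saline 8 (range -0.030 to 0.104). In Abstinence against Saline C1qa was 0.011 without Abstinence 1 (range -0.088 to 0.011) and Itgb2 -0.0058 with the replicate block. In Abstinence against Maintenance C1qb was -0.0073 without Maintenance 6 to 8 and -0.013 in the 17 libraries, and C3ar1 0.0042 without Abstinence 7 (range -0.093 to 0.0042). The cause was not tested.

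The background over all genes moved more. In Maintenance against Saline it was 351 genes with DESeq2, 411 with limma voom, 57 with only the compared groups, 176 in the 17 libraries, 37 with marker covariates and 42 (without Saline 3) to 197 (without Saline 8) with 1 library left out, including 62, 60 and 70 without Saline 1, 2 and 4. In Abstinence against Saline it was 36, 184, 5, 56 and 0 in that order of settings, 15 without Maintenance 6 to 8, and from 1 to 15 with 1 library left out (15 without Saline 8, 6 without Saline 7 or Maintenance 6, 7 without Abstinence 5, 1 without Saline 1, 2, 3, 5 or 6 or Abstinence 1, 2 or 6). In Abstinence against Maintenance it was 471 with DESeq2, 331 with limma voom, 64 with only the compared groups, 238 in the 17 libraries and 89 (without Abstinence 3) to 265 (without Maintenance 8) with 1 left out, 92 and 100 without Abstinence 4 and 7.

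Replicate numbers shared across groups gave no sign of pairing over all tested genes: deviations of 22 same-numbered pairs correlated from -0.12 to 0.09, with 0 over 0.1. Pairs of unlike number were not compared, and pairing that acts on few genes would not show in such a correlation. With the replicate block 69 genes passed in Maintenance against Saline and no member in any comparison. The C3 estimate in Maintenance against Saline was then -2.56. Counts of C3 and C4b, at most 246 and 447 per library, limit what could be seen for them, and intervals for the 7 abundant genes lie within -0.43 and 0.38 log2 units.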
